A study of Saccharomyces cerevisiae and Saccharomyces cerevisiae S288C with 30 samples.

Results

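RPL30 (YGL030W) is the single gene for protein L30 of the large ribosomal subunit in *Saccharomyces cerevisiae*, and it was described here through every splicing event measured in it. The table of PSI values held 405 events, and 3 of them lay in RPL30: its annotated intron, an alternative 5′ splice site (A5SS) event and an unannotated intron. All 3 were taken because they lie in this gene, and the gene itself was chosen with earlier results of these data known. Of 78 possible PSI values, 65 were given. RPL30 also had 1 of the 466 branch points of Branch-seq, an unannotated one, and no site among the 58 of Lariat-seq.

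In budding yeast L30 regulates its own synthesis. When it is in excess over assembling ribosomes, the protein binds a kink-turn that its own transcript forms around the start of the intron, and this blocks splicing of the RPL30 pre-mRNA. It also binds the spliced mRNA and lowers its translation. Unspliced yeast transcripts that reach the cytoplasm usually meet an early stop codon and are then targets of nonsense-mediated decay, which needs the helicase Upf1. Dbr1, the debranching enzyme, opens the lariat that each excised intron forms.

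There were 26 RNA-seq libraries, 2 biological replicates for each of 13 groups. TruSeq libraries, named polyA in the table, came from S288C cells in YPD at OD600 0.5 to 1 with the labels upf1_null, dbr1_null and WT. Ribo-Zero libraries, depleted of rRNA, came from S288c cells labelled dbr1, +rap and -rap, from SK1 cells labelled sk1, and from SK1 cells held in sporulation medium for 0, 3, 6, 7.5, 8.5 and 12 h, labelled t=0 to t=12. The labels do not describe the rap treatment, the dbr1 allele or the medium of the dbr1, sk1, +rap and -rap cultures, and they give no untreated culture made beside dbr1 or sk1, so both were set against -rap. Branch-seq pooled 3 gel fractions of 1 experiment and Lariat-seq was 1 library, both from lariat RNA of S288C cells at OD600 0.94 to 0.98.

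PSI is a fraction with 2 decimals, and the sources used here do not define it. For the annotated and the unannotated intron a higher PSI is read here as a larger share of transcripts that keep the intron. That reading is not made for Ribo-Zero dbr1, where lariats that were not opened may also give intron reads, which was not tested. For the A5SS event the direction is not given, so its values are given without a reading. The read numbers behind a PSI are unknown, so no counting interval is given. A value with ± gives the mean and the SD over both libraries of a group (n = 2).

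RPL30 spans positions 439091 to 439638 of chromosome VII on sacCer3, on the plus strand. The annotated intron runs from 439094 to 439323 and is 230 bases long. It follows directly on the first 3 coding bases, so that the first coding exon holds only the start codon and the second holds the other 315 coding bases. The intron of the A5SS event runs from 439098 to 439323 and is 226 bases long. It ends at the same 3′ splice site and begins 4 bases further downstream, so the paired 5′ splice sites differ by a length that shifts the reading frame. The unannotated intron lies wholly inside the second coding exon, from 439382 to 439479. It is 98 bases long, which is not a multiple of 3 either, and it begins 58 bases after the end of the annotated intron.

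**Figure D1:**
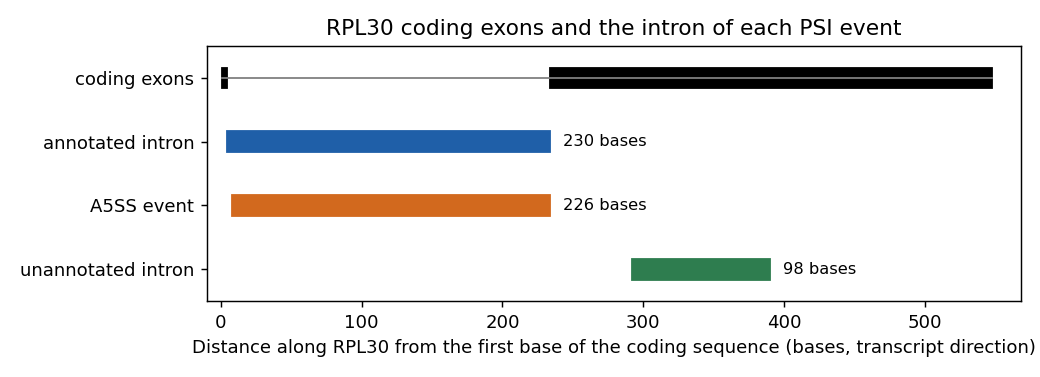
Coding exons of RPL30 (black) and the intron of each of the 3 PSI events (coloured bars), with distance in bases from the first coding base along the x axis. The annotated intron and the A5SS event share their right end and start 4 bases apart, and the unannotated intron of 98 bases lies inside the second exon.

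The annotated intron was kept in a large share of RPL30 transcripts in WT and -rap cells. In WT its PSI was 0.55 and 0.46, and in -rap it was 0.38 and 0.43. WT averaged 0.505 ± 0.0636, against a median of 0.065 over the other 89 annotated introns of ribosomal protein genes. Only 5 of those 89 stood higher than RPL30 in WT. In -rap 9 stood higher, with a median of 0.085, and in sk1 9 stood higher, with a median of 0.055. Among all other annotated introns of the table RPL30 was less extreme, with 68 of 259 above it in WT and 65 of 205 in -rap. RPL30 retention thus stood high among ribosomal protein introns in both preparations, and less so among all annotated introns.

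Across the 7 groups with both values the annotated intron was highest in Ribo-Zero dbr1, at 0.965 ± 0.0495. Next came upf1_null at 0.585 ± 0.00707, t=0 at 0.555 ± 0.106, dbr1_null at 0.52 ± 0.0283 and WT at 0.505 ± 0.0636, and within these 4 groups each overlapped its neighbour. -rap at 0.405 ± 0.0354 and sk1 at 0.335 ± 0.0778 were the lowest and overlapped each other. WT and -rap did not overlap, but they differ in library kit (named polyA, or depleted of rRNA), culture and lane, which cannot be told apart.

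The same intron was the least often measured of the ribosomal protein introns. It had a value in 16 of 26 libraries, where the other 89 had a median of 24 and none had fewer than 20. Neither +rap library gave a value for RPL30, while all 89 others had one in both. From 6 h of sporulation on, only 1 library, replicate 1 at 7.5 h, gave a value for it. The others lacked few values at 6 h, 1 in replicate 1 and 0 in replicate 2, and at 12 h, 3 and 9. At 8.5 h 60 and 58 of the others lacked one too. The rule by which the authors left values out is not given in the sources used here.

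**Figure D2:**
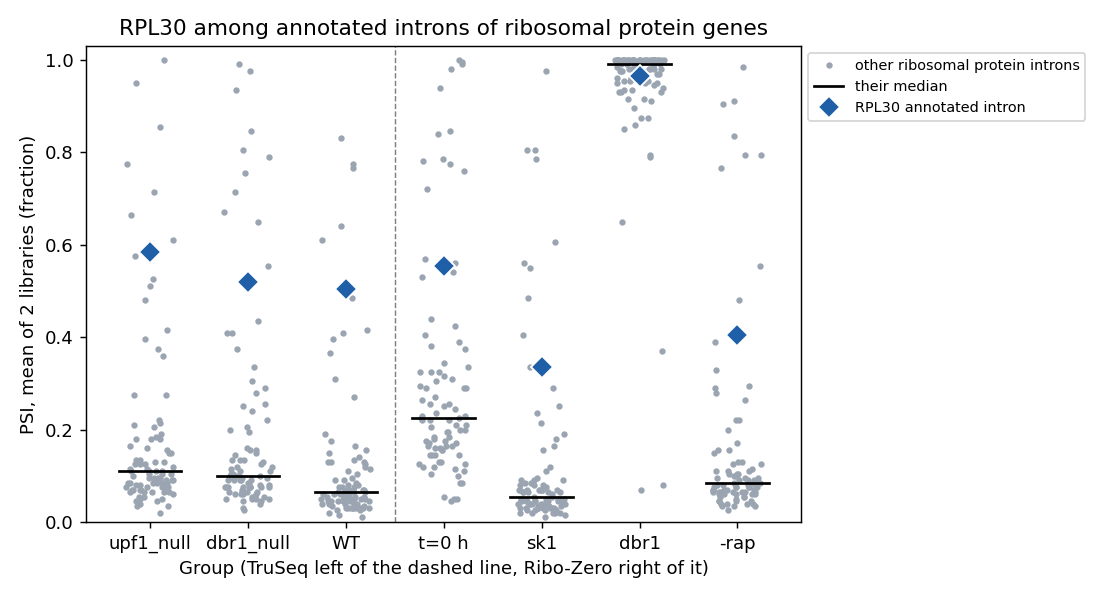
Mean PSI of 2 libraries (y axis) for each annotated intron of a ribosomal protein gene, by group, with the RPL30 annotated intron as a blue diamond and the median of the other 89 as a black line. RPL30 lies far above the median in every group shown except Ribo-Zero dbr1, where it is at 0.965 beside a median of 0.99.

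The A5SS event was measured in 23 libraries, from 0.62 to 1. It averaged 0.635 ± 0.00707 in WT and 0.75 ± 0.113 in -rap. Of the 6 other A5SS events, the 5 with values in WT and -rap averaged 0.99 to 1 in WT and 0.97 to 1 in -rap. RPL30 was thus the lowest A5SS event with values in both groups.

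In each library with both values the A5SS event was at or above the annotated intron. That order is not particular to RPL30. In WT both A5SS events of RPL19B were at 1, and its annotated intron was at 0.04 in both libraries. The PSI of these kinds of event may not measure the same thing, so the gap is a description. The gap ran from 0.08 to 0.18 in the 6 TruSeq libraries, with a median of 0.12. In the 8 Ribo-Zero libraries other than dbr1 it ran from 0.02, in replicate 1 at 7.5 h, to 0.54, in sk1 replicate 1, with a median of 0.34. In dbr1 it was 0.06 and 0. Set beside WT, the annotated intron of -rap was lower and the A5SS event higher, with kit, culture and lane differing together.

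**Figure D3:**
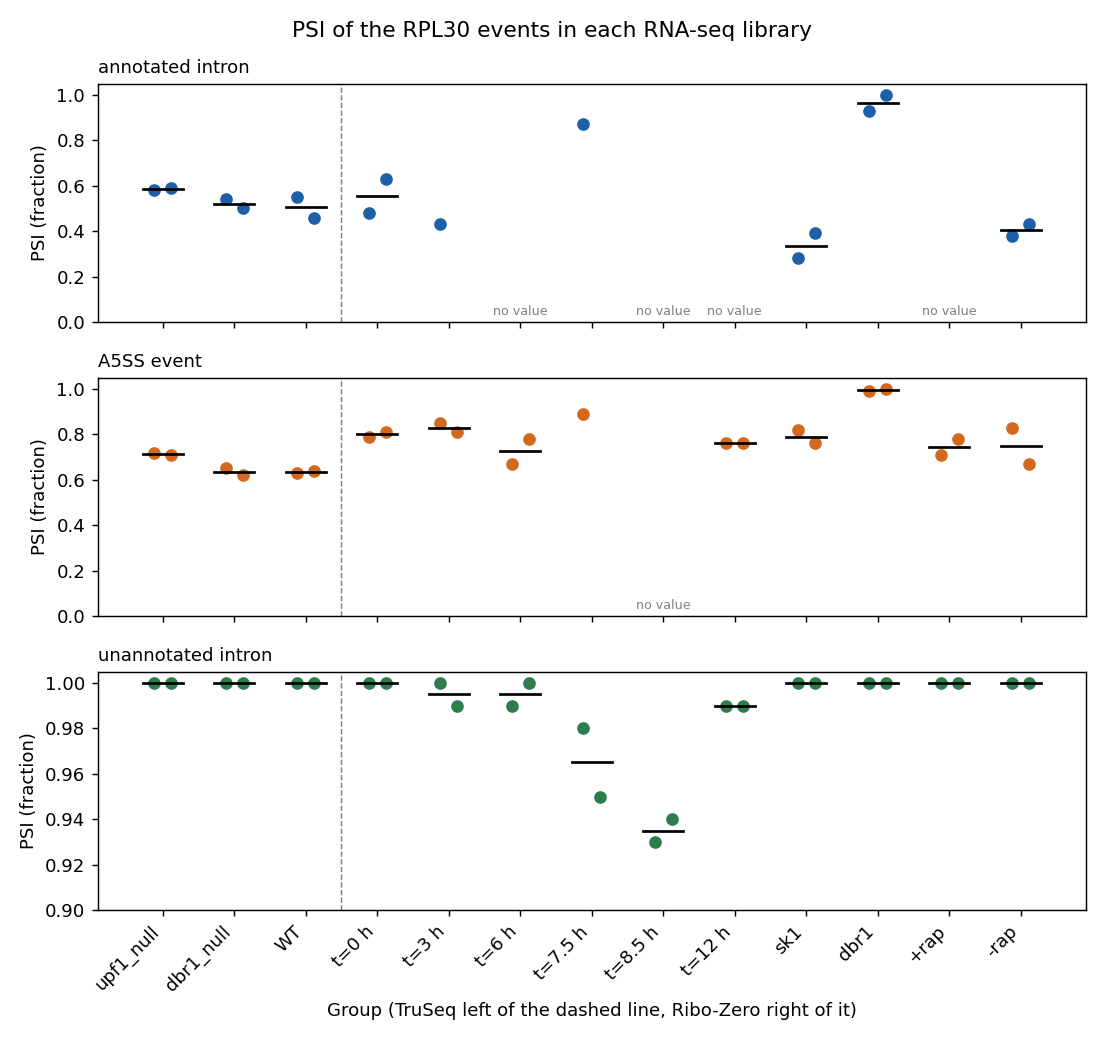
PSI (y axis) of the 3 RPL30 events in each RNA-seq library (points), with the mean of 2 libraries as a black line and TruSeq left of the dashed line. The panel of the unannotated intron starts at 0.9. The annotated intron and the A5SS event reach 0.93 to 1 in Ribo-Zero dbr1, and the unannotated intron is under 0.98 only in replicate 2 at 7.5 h and in both libraries at 8.5 h.

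The upf1_null libraries show whether PSI differs where Upf1 is lost. They do not measure RNA decay itself. The annotated intron was at 0.58 and 0.59 in upf1_null, against 0.55 and 0.46 in WT. The groups did not overlap, but the difference of 0.08 did not pass limma's moderated test over all events (0.457 log2 odds, SE 0.212, adjusted p = 0.285). Its 95% interval ran from -0.164 to 1.08 log2 odds. The A5SS event was at 0.72 and 0.71 in upf1_null, against 0.63 and 0.64 in WT. It rose by the same 0.08 and passed narrowly (0.515 log2 odds, SE 0.0802, adjusted p = 0.0471). That call did not hold without any 1 of the 4 libraries (adjusted p = 0.136 to 0.185) nor with the replicate number as a block (adjusted p = 0.0962). The unannotated intron was at 1 in all 4 libraries.

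One of the 3 RPL30 events was thus called, where 12.8% of the 382 events tested passed in either direction and 11.8% rose. Among single-copy genes of the large subunit, 4 of 9 on the list had an event. RPL28, which encodes L28 and whose unspliced RNA is a known target of decay, rose there (0.715 ± 0.0636 in upf1_null, 0.15 ± 0.0566 in WT, adjusted p = 0.0291), while RPL25, RPL39 and an unannotated intron of RPL5 did not pass. The median difference over these 4 events was 0.0375, and over all events 0.025. Of 7 genes known for autoregulated splicing or regulated retention, RPL22A rose (0.51 ± 0.099 in upf1_null, 0.115 ± 0.00707 in WT, adjusted p = 0.0271). The median difference over the 7 was 0.09. When fitted on the libraries of both groups alone, neither RPL28 nor RPL22A passed (adjusted p = 0.0769 for each). Without WT replicate 1 or WT replicate 2 neither RPL28 nor RPL22A passed (adjusted p = 0.054 to 0.114), nor did RPL28 without either upf1_null library (adjusted p = 0.107 and 0.13). YRA1, which encodes an mRNA export factor, averaged 0.39 in both groups. No member of the L7Ae family of RNA-binding proteins to which L30 belongs, out of 5 listed, had an event in the table.

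Deletion of DBR1 in TruSeq libraries left RPL30 without a detected change. The annotated intron was at 0.54 and 0.5 in dbr1_null, against 0.55 and 0.46 in WT (0.0849 log2 odds, SE 0.212, adjusted p = 0.984), and the A5SS event averaged 0.635 in both groups. The interval for the annotated intron, -0.536 to 0.706 log2 odds, still allows a moderate shift either way. In this comparison 3.18% of 377 events passed. Set against dbr1_null, upf1_null was higher at the A5SS event by 0.08 but did not pass (adjusted p = 0.0669, with 3.95% of 380 events called). Both comparisons with WT share the WT libraries.

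In the Ribo-Zero libraries the S288c dbr1 cells stood close to the ceiling. The annotated intron was at 0.93 and 1 in dbr1, against 0.38 and 0.43 in -rap. It rose by 0.56 (5.65 log2 odds, SE 0.959, adjusted p = 0.00224), a call lost when the spread came from these 4 libraries alone (adjusted p = 0.0788). The A5SS event was at 0.99 and 1 in dbr1, against 0.83 and 0.67 in -rap. It rose by 0.245 (4.54 log2 odds, SE 0.473, adjusted p = 5.37e-06). The unannotated intron was at 1 in all 4 libraries. Calls were common here: 44.2% of 319 events passed in either direction and 43.3% rose, and of the 90 annotated introns of ribosomal protein genes 96.7% rose. The median difference over the 90 was 0.87, against 0.56 for RPL30. RPL30 began at 0.405 in -rap, where the median of the other 89 was 0.085. Whether this higher start bears on its smaller difference was not tested. In dbr1 60 of the other 89 stood above the RPL30 mean, which averages 0.93 and 1.

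Of the autoregulated list 7 of 7 events rose in dbr1, with a median difference of 0.705, and of the single-copy list 3 of 4, with 0.815, beside a median of 0.05 over all events. The call of RPL22B was lost without -rap replicate 2 (adjusted p = 0.0519) and on the linear PSI scale (adjusted p = 0.581). With an offset of 0.05 in the log2 odds, 9 of the 10 list calls held (highest adjusted p = 0.0916). Genotype and any other difference between the dbr1 and -rap cultures cannot be told apart. The dbr1 difference was larger in Ribo-Zero than in TruSeq by 5.57 log2 odds at the annotated intron (SE 1.13, adjusted p = 0.00208) and by 4.54 at the A5SS event (SE 0.591, adjusted p = 1.08e-05). In that test over all 26 libraries 37.6% of 319 events passed.

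**Figure D4:**
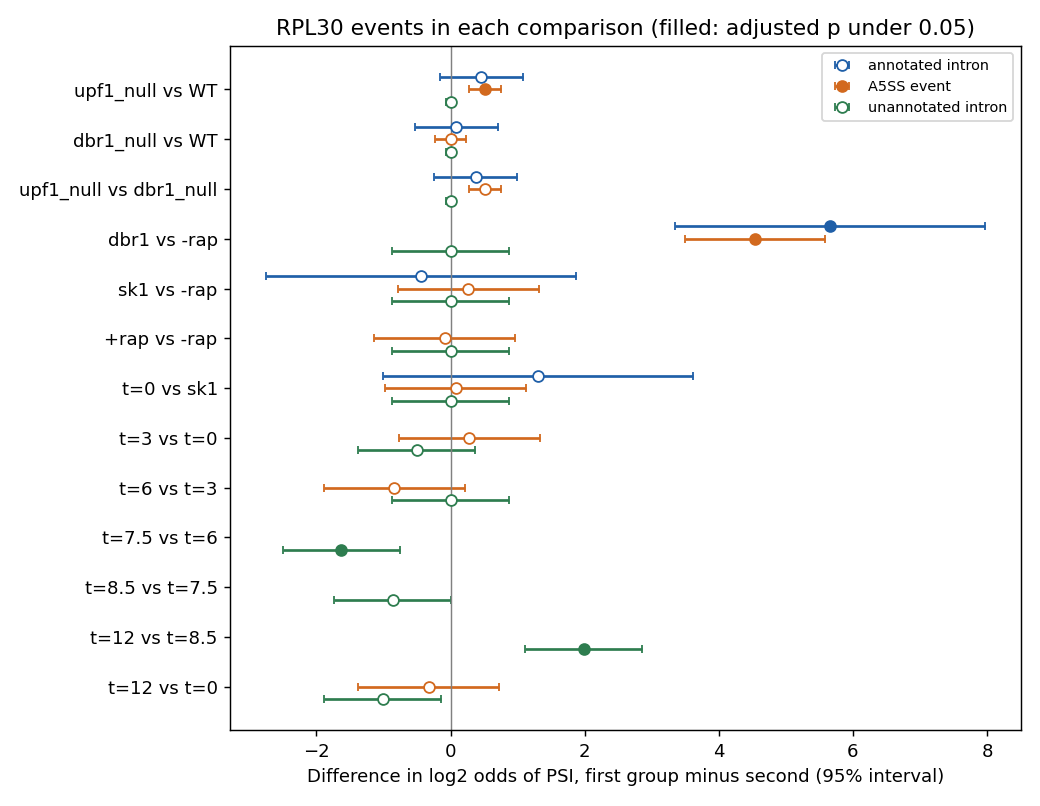
Difference in log2 odds of PSI, first group minus second (x axis), with its 95% interval from limma, for each RPL30 event (colours) in each comparison with both values in both groups (rows). Filled points passed an adjusted p of 0.05: the annotated intron and the A5SS event in dbr1 against -rap, the A5SS event in upf1_null against WT, and the unannotated intron at 7.5 h against 6 h and at 12 h against 8.5 h.

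Under +rap the A5SS event and the unannotated intron were measured. The A5SS event was at 0.71 and 0.78 in +rap, against 0.83 and 0.67 in -rap, and the groups overlapped. The difference was -0.0896 log2 odds (SE 0.473, adjusted p = 1), with an interval from -1.14 to 0.959. The unannotated intron was at 1 in all 4 libraries. In this comparison 21.9% of 306 events passed and 53.9% of the 89 ribosomal protein introns with values rose, with a median difference of 0.16. Of the autoregulated list 4 of 7 rose, and RPL28 and RPL25 rose among the single-copy genes. RPS9A, of the small subunit, was at 0.955 ± 0.00707 in +rap and 0.295 ± 0.0354 in -rap (adjusted p = 0.00227). DBP2, an RNA helicase gene, was at 0.585 ± 0.134 in +rap and 0.17 ± 0.0141 in -rap (adjusted p = 0.00656). Without +rap replicate 2 the calls over all events fell to 1, against 67 with all libraries, and of the 6 list calls only that of RPS9A held (adjusted p = 0.0327). It was also the only one of the 6 to hold without -rap replicate 1 and when fitted on the 4 libraries alone.

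No difference of RPL30 between sk1 and -rap was detected. The annotated intron was at 0.28 and 0.39 in sk1, against 0.38 and 0.43 in -rap (-0.437 log2 odds, SE 0.959, adjusted p = 0.923), with an interval from -2.75 to 1.87. Its spread is shared over the Ribo-Zero libraries, dbr1 among them, so the interval is not that of sk1 and -rap alone. The A5SS event was at 0.82 and 0.76 in sk1, against 0.83 and 0.67 in -rap (adjusted p = 0.897). The comparisons of dbr1, +rap and sk1 share the -rap libraries. In this one 1.7% of 294 events passed.

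At the start of sporulation the annotated intron was at 0.48 and 0.63 in t=0, against 0.28 and 0.39 in sk1. The groups did not overlap, but the difference of 0.22 did not pass (1.3 log2 odds, SE 0.959, adjusted p = 0.369). The SE was 0.425 and the adjusted p = 0.0894 once the dbr1 libraries, which differ by 0.07 near the ceiling, were left out of the fit, a choice made after seeing the data. Over all alternatives the adjusted p ran from 0.0687 to 0.756. Over the 90 ribosomal protein introns 76.7% rose, with a median difference of 0.155, and 36.2% of all 293 events passed in either direction. In the lists 5 of 7 autoregulated introns and 3 of 4 single-copy events rose. Of these 8 calls 5 held on the linear PSI scale (highest adjusted p = 0.0947). Without the dbr1 group in the fit 5 held (highest adjusted p = 0.0701), and when fitted on the 4 libraries alone 6 held (highest adjusted p = 0.1). The calls of RPL22B, RPS9A and RPL28 held whichever of the 4 libraries was left out, and the other 5 were lost without at least 1 of them (highest adjusted p = 0.298). The A5SS event was at 0.79 and 0.81 in t=0, against 0.82 and 0.76 in sk1 (adjusted p = 1).

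During sporulation the A5SS event was at 0.79 and 0.81 at 0 h, 0.85 and 0.81 at 3 h, 0.67 and 0.78 at 6 h, and 0.76 in both libraries at 12 h. At 7.5 h only replicate 1 had a value, 0.89, and at 8.5 h neither did. No tested step passed. The difference between 3 h and 0 h had adjusted p = 0.733, with 8.71% of 287 events called. The groups at 6 h and 3 h did not overlap, but the difference of -0.105 had adjusted p = 0.908, with 0 of 326 events called by limma and 22 at an unadjusted p under 0.05. At 12 h the event stood 0.04 below 0 h (adjusted p = 0.64, with 27% of 267 events called). The annotated intron had 1 value at 3 h, 0.43, and 1 at 7.5 h, 0.87, and no test.

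The unannotated intron in the second exon was the only RPL30 event measured in all 26 libraries. It was at 1 in every TruSeq library, in dbr1, +rap, sk1 and -rap, and at 0 h. At 3 h and at 6 h 1 of the 2 libraries was at 0.99 and the other at 1. It then stood at 0.98 and 0.95 at 7.5 h, at 0.93 and 0.94 at 8.5 h, and at 0.99 in both libraries at 12 h. Both libraries at 8.5 h lay below all others.

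The level changed over the 6 times in limma's F-test (moderated F = 16.2, adjusted p = 0.000474). Time changed many events, with 55.3% of the 159 tested called, and 32 of 67 unannotated introns among them. The fall at 7.5 h against 6 h passed (-1.63 log2 odds, SE 0.402, adjusted p = 0.0148, with 16.6% of 235 events called), and so did the rise at 12 h against 8.5 h (1.99 log2 odds, SE 0.402, adjusted p = 0.00392, with 21.5% of 200 events called). The step from 7.5 h to 8.5 h did not (-0.864 log2 odds, adjusted p = 0.341, with 3.47% of 202 events called), nor did 12 h against 0 h (adjusted p = 0.0772, and 0.0168 when fitted on these 4 libraries alone). Both values were 1 at 0 h and 0.99 at 12 h, a single unit of rounding with no spread within either group. The fall at 7.5 h failed without 7.5 h replicate 2 (adjusted p = 0.136), without 6 h replicate 2 (adjusted p = 0.152), on the linear PSI scale (adjusted p = 0.0762) and when fitted on its 4 libraries alone (adjusted p = 0.272). The rise at 12 h passed whichever of its 4 libraries was left out (highest adjusted p = 0.0289).

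At 7.5 h against 6 h 12 of 75 unannotated introns were called, RPL30 included, 8 of them lower and 4 higher. Over the 66 others with values at every time, the median was 0.985 at 0 h and 0.988 at 8.5 h. Between these times 29 of the 70 others with values were lower at 8.5 h, and 7 of the 70 fell by as much as RPL30 or more. At 7.5 and 8.5 h the libraries also held fewer PSI values than at any other time, 273 and 280 at 7.5 h and 231 and 234 at 8.5 h, against 314 and 333 at 0 h. The part of this in the lower values was not tested.

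**Figure D5:**
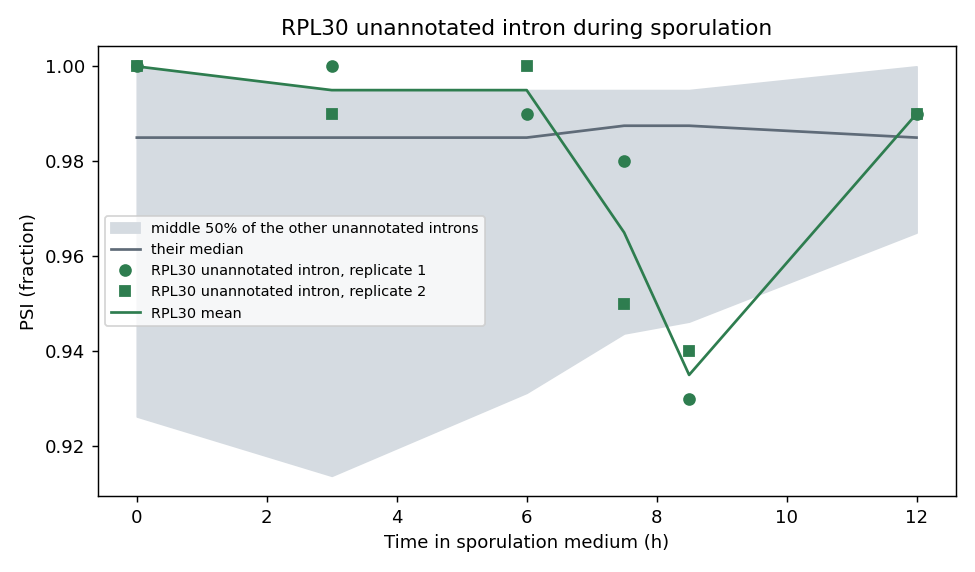
PSI of the RPL30 unannotated intron (y axis, from about 0.91) against hours in sporulation medium (x axis), with each library as a point, the mean as a green line, and the median and middle 50% of 66 other unannotated introns in grey. RPL30 is at 1 at 0 h, falls to 0.93 and 0.94 at 8.5 h and is at 0.99 at 12 h, while the grey median stays between 0.985 and 0.988.

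The annotated introns most like that of RPL30 were sought by Pearson's r of the log2 odds over its 7 group means, among 72 annotated introns with a value in every library. RPS23B (r = 0.989), RPS13 (r = 0.989), YRA1 (r = 0.988), RPL34B (r = 0.9855) and RPL34A (r = 0.984) came first. Of the 72 introns 28 had r above 0.9, and the median was 0.658. Over the 6 group means without dbr1 only RPS23B (r = 0.953) and RPS13 (r = 0.908) were above 0.9, and the median was 0.224. RPL22B, BUD25 and RPS14B followed, with r between 0.856 and 0.883. Over these 6 groups the mean PSI of RPS23B ran only from 0.08 to 0.125, and that of RPS13 from 0.07 to 0.48. That of RPL30 ran from 0.335 to 0.585. Levels in WT, where RPL30 was at 0.505, were 0.125 for RPS23B and 0.14 for RPS13, 0.39 for YRA1, 0.055 for RPL34B and 0.06 for RPL34A. For RPL22B, BUD25 and RPS14B they were 0.765, 0.685 and 0.415. The group means share libraries and kits, so these r are a description.

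Branch-seq found no annotated branch point of RPL30 and 1 unannotated one, at position 439462 of chromosome VII on the plus strand of sacCer2. Because PSI coordinates are on sacCer3, the site was matched to RPL30 by the gene named in the file and was not placed against the introns above. Its value was 5.26 CPM. All 466 values were whole multiples, within 0.001 reads, of 0.0417 CPM, so that 5.26 CPM stands for 126 reads. The exact Poisson interval was 105 to 150.02 reads, which covers counting error only, since PCR copies were not told apart and there was 1 pooled experiment. The site ranked 39 from the top among the unannotated branch points, whose median was 0.626 CPM, and 85.4% of them were lower. Of the annotated ones, with a median of 113 CPM, 33.8% were lower.

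RPL30 was not alone in lacking an annotated branch point. Of 88 ribosomal protein genes with an annotated intron among the PSI events, 46 had one, and of 182 other genes 146. Among the 6 ribosomal protein genes with a single annotated intron of over 150 and up to 300 bases, RPL30 included, 3 had one, with a median of 0.167 CPM. An unannotated branch point without an annotated one was seen in 4 ribosomal protein genes. These were RPS6B with 154 reads, RPL13B with 145, RPL30 with 126 and RPS7A with 119. In Lariat-seq, with 3541 junction reads at 58 sites, no site lay within 1000 bases of RPL30, and 9 of the 88 ribosomal protein genes had a site. That file lists only sites with at least 1 read, so no upper limit is given for RPL30.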

How the data were processed

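The submitters' processing notes name Bowtie 1.0.0 and SAMtools 0.1.7a with build sacCer2 for Branch-seq, Bowtie 1.0.0 with sacCer3 for Lariat-seq, and TopHat2 with sacCer3 for RNA-seq. Per the file headers, the authors deposited Branch-seq as CPM in 1 column for 3 fractions, Lariat-seq as lists of junction reads, and PSI as a fraction. How PSI was computed, and the read depth behind it, are unknown here. No genome sequence was used.

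Events were given to RefSeq R64 genes that overlap the intron, or lie within 200 bases, on the same strand. Log2((PSI + 0.01)/(1 − PSI + 0.01)) was fitted with a mean per group over the 6 TruSeq or the 20 Ribo-Zero libraries, or all 26 for the difference between preparations, by least squares with variance moderation by limma 3.58.1 in R 4.3.3. Each comparison was tested on simulated data and against limma itself. Events with both values in all groups compared were tested two-sided, with Benjamini-Hochberg adjustment over all of them and a threshold of 0.05. Alternatives were another offset, linear PSI, robust moderation, other event and library sets, a replicate block and each library left out. The members and gene lists were chosen with earlier results of these data known. The other genes named are members of 3 lists with an event and the 5 introns most like RPL30, with dbr1 and again without it. RPS6B, RPL13B and RPS7A were named after their values were seen. The deposited PSI is rounded to 0.01, so steps of that size near 1 are single units of the table. Likeness was planned over 13 group means and computed over the 7 with RPL30 values. The Branch-seq rank was planned among annotated sites, where RPL30 has none, and was taken among unannotated ones.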

Additional observations from a re-analysis of the deposited data

Results flagged for a closer look

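The difference between dbr1 cells and their reference group at RPL30 was not the same in both library preparations, by a test of the difference itself. At the annotated intron the Ribo-Zero difference, dbr1 against -rap, exceeded the TruSeq difference, dbr1_null against WT, by 5.57 log2 odds (SE 1.13, limma adjusted p = 0.00208), with both dbr1 libraries above both -rap libraries. At the A5SS event it exceeded it by 4.54 log2 odds (SE 0.591, adjusted p = 1.08e-05). The same test passed for 90% of the 90 annotated introns of ribosomal protein genes. Kit, with polyA-named or rRNA-depleted RNA, culture, sequencing lane and reference group change together with the preparation and cannot be told apart.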

How the results depend on the processing

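Of 363 alternative values over 33 RPL30 results, 340 kept their side of the threshold with no change of sign, 13 lost a call, 1 gained one and 9 changed sign. Of the 340, 98 belong to 9 results with a difference of 0, which have no direction, and 4 of these 98 were off 0: the unannotated intron at 6 h against 3 h was 0.51 log2 odds above or below it without 1 library (adjusted p = 0.669 to 1). The 9 that changed sign were uncalled values with 1 library left out. They belong to dbr1_null against WT, where the leave-one-out adjusted p ran from 0.315 to 1 for the annotated intron and from 0.514 to 1 for the A5SS event, and to the A5SS event in +rap against -rap (0.405 to 0.971), sk1 against -rap (0.649 to 1) and t=0 against sk1 (0.808 to 1). No direction can be read for these, nor for YRA1 in upf1_null against WT (0.696 to 0.849). The upf1_null call of the A5SS event (adjusted p = 0.0471) was lost with robust moderation (0.0582), with the libraries of both groups alone (0.0523), on the linear PSI scale (0.0503), with a replicate block (0.0962) and without each of its libraries (0.136 to 0.185). With the libraries of the groups compared alone, the dbr1 call of the annotated intron (0.0788) and the 7.5 h call of the unannotated intron (0.272) were lost, where fewer libraries give the spread, and 12 h against 0 h became a call (0.0168). The 7.5 h call was also lost on the linear scale (0.0762), and without each library in turn it ran from 0.00664 to 0.152. The replicate block changed no other RPL30 call. The labels give same-numbered libraries no link beyond the number. Deviations from the group means had r of -0.097 to 0.311 among TruSeq libraries, with a median of -0.002. Among Ribo-Zero ones r ran from -0.501 to 0.402, with a median of -0.01. A link within single pairs of groups is thus not excluded. Leaving the dbr1 group out of the fit was added after seeing the data and changed no RPL30 call. Alternatives for the listed genes were added likewise, and with a replicate block the upf1_null calls of RPL28 (0.088) and RPL22A (0.0814) and the t=0 call of RPL25 (0.06) were lost. The background counts moved further, with 2 to 26 against 12 for dbr1_null, 11 to 49 against 49 for upf1_null, 1 to 19 against 15 for upf1_null against dbr1_null, 52 to 143 against 141 for dbr1, 1 to 74 against 67 for +rap and 1 to 19 against 5 for sk1. For t=0 against sk1 they ran from 40 to 110 against 106. In the steps of sporulation they ran from 1 to 80 against 25 at 3 h, 0 to 10 against 0 at 6 h, 19 to 46 against 39 at 7.5 h, 3 to 17 against 7 at 8.5 h and 23 to 44 against 43 at 12 h, with 32 to 78 against 72 for 12 h against 0 h, 48 to 99 against 88 for the F-test and 39 to 127 against 120 for the difference between preparations. The cause of these moves was not tested. The lowest +rap count was without +rap replicate 2 and the highest 3 h count without 3 h replicate 2. The Branch-seq rank of 39 became 170 of 466 over all sites. Likeness over the Ribo-Zero groups alone was not run, since RPL30 has both values in only 4 of them.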
